A study of Homo sapiens with 8 samples.

Results

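The genes described here encode the proteins of the mitochondrial ribosome that carry the names MRPL (large subunit) or MRPS (small subunit). They were chosen by name alone, as MRPL or MRPS followed by digits and at most 1 letter from A to C, so that pseudogenes stayed out. The rule found 78 genes, 49 MRPL and 29 MRPS, among the 27996 genes of the deposited expression table. All 78 had a mean FPKM of 0.5 or more (fragments scaled by transcript length and by library size) and were tested with 13053 genes in all.

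The study had compared HL60, a human promyelocytic leukemia cell line, with HL60/ADR, a derivative selected for growth in Adriamycin (doxorubicin). HL60/ADR had been kept in 0.5 µg/ml Adriamycin and taken out of the drug before the experiments, and HL60 had not been selected. Poly(A) RNA of each line was profiled by MeRIP-seq, in which an antibody against N6-methyladenosine (m6A) pulls down methylated RNA fragments (IP) and the unselected fragments (input) double as RNA-seq. Each line gave 2 input and 2 IP libraries. HL60/ADR is a single selected line, so drug resistance and any other difference between these lines cannot be told apart. Title and table column name the HL60/ADR libraries as such, but their cell line label reads HL60. The assignment follows title and column. The study calls the samples of a line biological duplicates and does not describe separate cultures. No label says that the libraries of a line came from separate cultures, so the spread behind every p-value is that of these libraries and may be technical.

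Mitochondria translate their own small set of messages, all of them for proteins of the respiratory chain and the ATP synthase, on a ribosome of bacterial origin. Its RNA is encoded in the mitochondrial genome, whereas its proteins are encoded in the nucleus, made in the cytosol and imported. Some of these proteins descend from bacterial ribosomal proteins and others are found only in mitochondria. Assembly needs both sets in fixed proportion, together with GTPases, helicases and RNA methyltransferases that act inside the organelle. Doxorubicin, the drug used for selection, intercalates into DNA, poisons topoisomerase II and is known to affect mitochondria.

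Of the 78 genes, 69 had an entry in the RefSeq promoter table (GRCh38.p14), which holds 250 bases before and 50 bases after each start. The motifs below were searched on both strands, in the 69 windows and in those of the 8710 tested genes with an entry. An ETS motif, CCGGAAG, stood in 29 of 69 windows (42.0%) against 21.8% of all. The YY1 core motif, AAGATGGC, stood in 20 windows (29.0%) against 6.15%, in 35.4% of the 48 windows of members that were lower in HL60/ADR and in 2 of the 11 of members that were higher. For the ETS motif these shares were 37.5% and 54.5%, and for the NRF1 type named below 33.3% and 36.4%. The YY1 core motif was found only before the start in 5 windows and reached past the start in 15. A motif of the NRF1 type, GCGCANGC, stood in 33.3% against 23.0%, the GC box GGGCGG in 59.4% against 70.3%, the CCAAT box in 29.0% against 37.6%, and the E-box CACGTG in 10.1% against 10.7%. Overlapping matches were allowed, and a match is a run of letters, not a bound site. ETS factors, NRF1 and YY1 are known regulators of nuclear genes for mitochondrial proteins.

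The sequences that follow are upstream of the transcribed bases and are given 5′ to 3′ on the strand of the first gene named, with matches of these motifs in capitals. The first group holds the whole gap between 2 deposited gene starts where a member and a neighbour run away from each other, since the later results compare such neighbours. MRPL52, the member with the largest rise, shares chr14:22829821-22829878 with SLC7A7, an amino acid transporter gene. MRPL12 shares chr17:81703301-81703366 with AC139530, a gene known by its clone name, MRPL18 shares chr6:159789704-159789811 with TCP1, MRPL47 shares chr3:179604650-179604689 with NDUFB5, and the 2 members MRPL46 and MRPS11 share chr15:88467391-88467452.
MRPL52 and SLC7A7: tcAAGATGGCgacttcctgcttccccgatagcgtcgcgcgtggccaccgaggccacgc
MRPL12 and AC139530: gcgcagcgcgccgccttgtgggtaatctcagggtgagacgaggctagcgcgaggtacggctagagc
MRPL18 and TCP1: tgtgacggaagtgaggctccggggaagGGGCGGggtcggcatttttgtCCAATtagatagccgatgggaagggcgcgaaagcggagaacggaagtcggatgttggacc
MRPL47 and NDUFB5: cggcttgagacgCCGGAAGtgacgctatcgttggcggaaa
MRPL46 and MRPS11: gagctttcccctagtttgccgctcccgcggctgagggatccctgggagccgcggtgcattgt

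The second group holds the last 100 bases before the start of 3 members with no such neighbour. It shows a promoter with repeated NRF1-type matches (MRPL17, which was higher in HL60/ADR, chr11:6683341-6683440), one with repeated ETS matches (MRPL20, lower, chr1:1407294-1407393) and one with no match in this stretch (MRPL1, lower, chr4:77862730-77862829).
MRPL17: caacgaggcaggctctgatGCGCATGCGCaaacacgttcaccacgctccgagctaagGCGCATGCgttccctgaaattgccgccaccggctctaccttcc
MRPL20: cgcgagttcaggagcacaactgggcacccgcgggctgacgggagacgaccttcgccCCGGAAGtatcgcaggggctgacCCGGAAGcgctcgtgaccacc
MRPL1: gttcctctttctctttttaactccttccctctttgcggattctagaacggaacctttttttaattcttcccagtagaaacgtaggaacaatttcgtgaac

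Most mitochondrial ribosomal protein genes were expressed at a lower level in HL60/ADR than in HL60. At an adjusted p under 0.05 in limma, 53 of 78 were lower (67.9%), 11 were higher (14.1%) and 14 did not pass. Among all tested genes 48.8% were lower and 30.9% higher, 79.7% in either direction, so that most genes differed between these lines. The median log2 difference of the members, HL60/ADR minus HL60 on log2(FPKM + 1), was -0.42 (quartiles -0.79 and -0.15), against -0.18 for all tested genes, and 56 of the 78 lay below that all-gene median. Among the 8859 tested genes within the members' range of mean FPKM, 55.1% were lower and 29.7% higher, with a median of -0.25. The shift of all genes bears on these counts: with the medians of the libraries set equal, 43 members were lower and 18 higher, and the median was -0.21. In bulk RNA, fewer cells of a type and less RNA per cell cannot be told apart.

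The changes were modest in size. Beyond 1.5-fold, 31 members were lower and 5 higher (28.6% and 17.3% of all tested genes), and beyond 2-fold on the log2 scale 10 were lower and 1 higher (13.8% and 8.93%). In 75 of the 78 the libraries of the lines did not overlap, a property shared by 90.4% of tested genes, and the exceptions were MRPL10, MRPL48 and MRPS5. Both subunits showed it: 33 of 49 MRPL genes were lower and 9 higher (67.3% and 18.4%), and 20 of 29 MRPS genes were lower and 2 higher (69.0% and 6.90%). The median log2 difference was -0.45 for MRPL and -0.41 for MRPS.

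**Figure D1:**
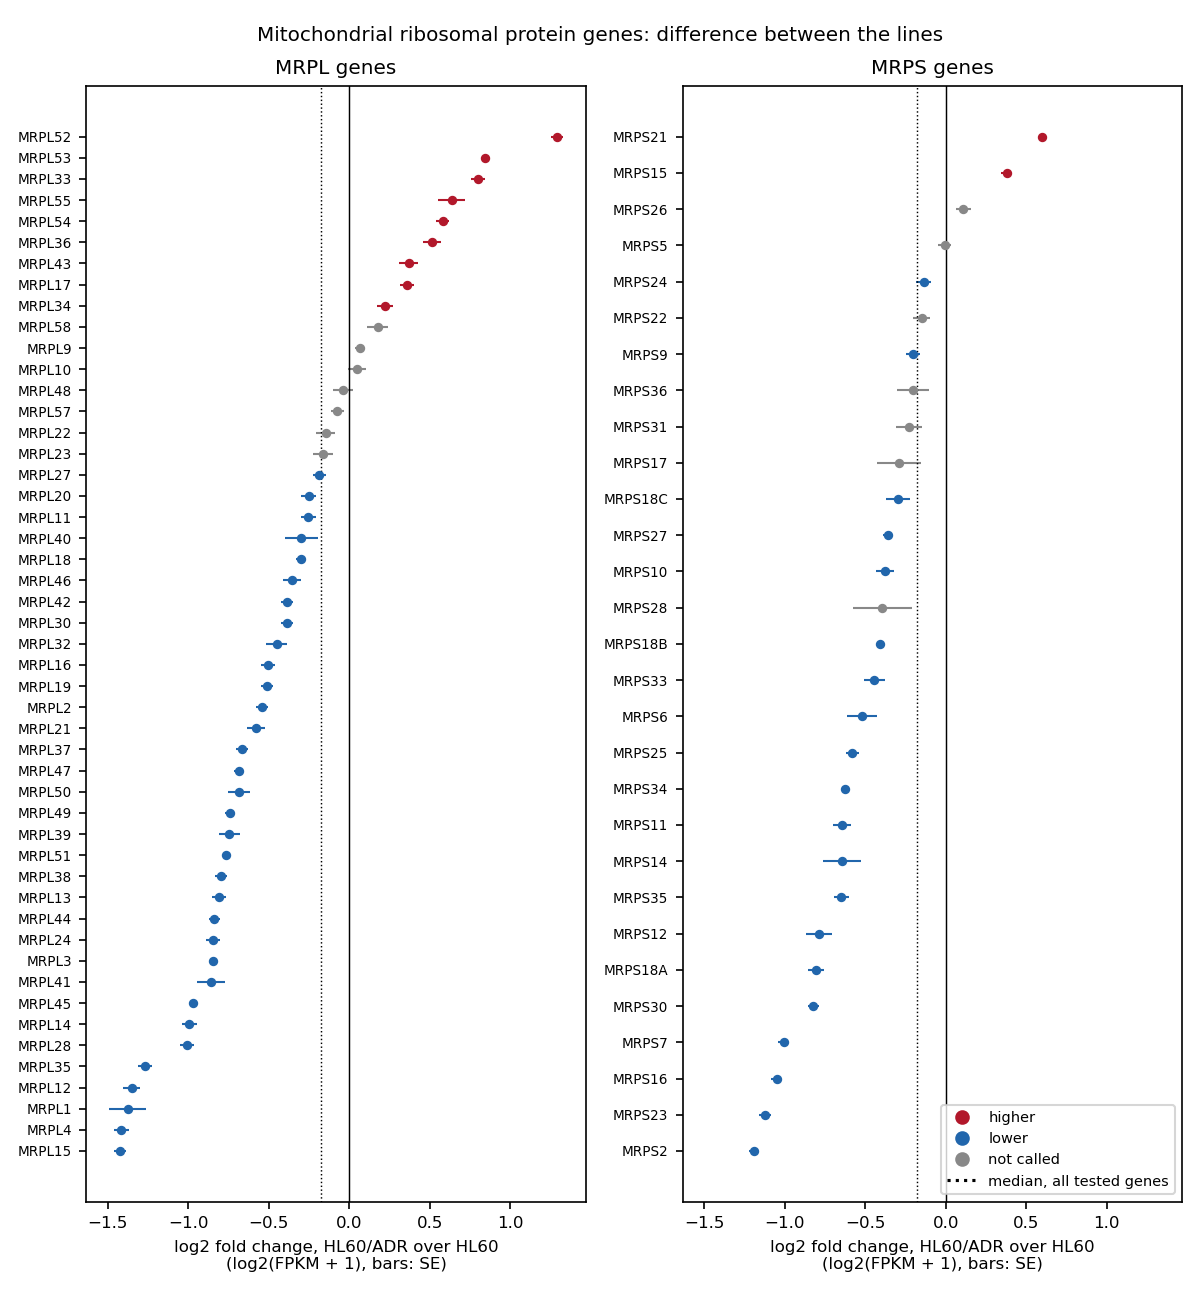
Log2 fold change (HL60/ADR over HL60, on log2(FPKM + 1)) of each of the 49 MRPL genes (left) and 29 MRPS genes (right), with points at the limma estimate, bars of 1 SE and colours for higher, lower or not called at an adjusted p under 0.05. MRPL52 stands alone beyond 1 on the right, and 10 genes lie beyond -1 on the left of the dotted median of all tested genes (-0.18).

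The largest falls among the MRPL genes were in proteins with a bacterial counterpart. MRPL15 had an FPKM of 18.4 and 17.8 in the HL60 libraries and of 5.95 and 6.28 in HL60/ADR, a 2.96-fold lower mean (log2 difference -1.42, SE 0.040, adjusted p = 2.5e-05). MRPL4 (chr19:10251901-10260055), whose protein lines the tunnel through which the new chain leaves the ribosome, stood at 22.0 and 23.6 in HL60 and at 8.05 and 7.76 in HL60/ADR (-1.42, SE 0.046, adjusted p = 3.4e-05). MRPL1 (chr4:77862830-77952785), of the mobile L1 stalk beside the exit site for transfer RNA, was at 11.4 and 10.7 against 4.17 and 3.16 (-1.38, SE 0.12, adjusted p = 0.00050). In all 3 genes both HL60/ADR libraries lay far below both HL60 libraries, and the spread was widest for MRPL1.

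MRPL12 (chr17:81703367-81707517) encodes the stalk protein that recruits translation factors and that has also been described as a partner of the mitochondrial RNA polymerase. It was the second most abundant member in HL60 and the sixth in HL60/ADR, at 71.5 and 65.8 against 27.0 and 25.5 FPKM (-1.35, SE 0.052, adjusted p = 5.2e-05). The proteins that join it at the base of the stalk did not fall to the same extent. MRPL11 stood at 24.0 and 22.5 in HL60 and at 19.95 and 18.7 in HL60/ADR (-0.25, adjusted p = 0.0083). MRPL10, which holds the MRPL12 copies, stood at 17.0 and 15.5 against 17.3 and 16.3 (0.05, adjusted p = 0.48), and its libraries overlapped. The FPKM ratio of MRPL12 to MRPL10 was 4.21 and 4.25 in the HL60 libraries and 1.56 in both HL60/ADR libraries, and that of MRPL12 to MRPL11 was 2.98 and 2.93 against 1.35 and 1.37. This shift of the ratios does not depend on how the libraries are scaled to each other.

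Further falls beyond 2-fold were found in MRPL35 and MRPL28. MRPL35 (chr2:86199355-86213790), a small protein with a bacterial counterpart, stood at 17.4 and 17.9 in HL60 and at 7.00 and 6.49 in HL60/ADR (-1.27, SE 0.045, adjusted p = 4.2e-05). MRPL28 (chr16:366969-371289) stood at 17.3 and 16.9 against 7.73 and 8.29 (-1.01, SE 0.042, adjusted p = 6.6e-05). Just short of that size lay MRPL14 (27.7 and 27.4 against 13.9 and 12.8, -0.99), a protein of the face that meets the small subunit. MRPL45 (21.2 and 21.0 against 10.2 and 10.3, -0.97) sits at the tunnel exit and ties the ribosome to the inner membrane.

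Around the exit tunnel the members differed in extent. Besides MRPL4 and MRPL45, MRPL24 was lower (22.9 and 24.6 against 12.9 and 12.6, -0.85), whereas MRPL22 (-0.15, adjusted p = 0.069) and MRPL23 (-0.16, adjusted p = 0.064) did not pass. Near the peptidyl transferase centre, MRPL3 (-0.85), MRPL2 (-0.54) and MRPL16 (-0.50) were lower, and MRPL27 was lower by a small amount (-0.19, adjusted p = 0.012), a direction that turned when the library medians were set equal (0.03). In the central protuberance, where mitochondria carry proteins of their own, MRPL38 (-0.80), MRPL46 (-0.36), MRPL40 (-0.30) and MRPL18 (-0.30) were lower, with an adjusted p of 0.049 for MRPL40. MRPL48 of the same region did not pass (-0.04). MRPL58, a peptidyl-tRNA hydrolase built into the large subunit, did not pass either (14.0 and 12.7 against 15.9 and 14.6, adjusted p = 0.062).

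Of the 11 members that rose in HL60/ADR, 9 were MRPL genes. MRPL52 (chr14:22829879-22835037), a mitochondria-specific protein, was the only member beyond 2-fold in this direction, at 8.73 and 9.20 FPKM in HL60 and at 23.6 and 23.1 in HL60/ADR, a 2.61-fold higher mean (1.29, SE 0.036, adjusted p = 2.5e-05). It moved from rank 53 to rank 8 among the members. MRPL53 (chr2:74471982-74472687), also mitochondria-specific, stood at 16.7 and 17.2 against 30.8 and 31.6 (0.84, SE 0.029, adjusted p = 4.1e-05). MRPL33, with a bacterial counterpart, stood at 10.2 and 9.48 against 17.8 and 17.9 (0.80, SE 0.042, adjusted p = 0.00012). In each of these 3 genes the HL60/ADR libraries lay well above the HL60 libraries and close to each other.

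Smaller rises were found in MRPL55, MRPS21, MRPL54, MRPL36 and MRPS15. MRPL55 stood at 9.46 and 11.1 FPKM in HL60 and at 17.0 and 15.8 in HL60/ADR (0.63, SE 0.082, adjusted p = 0.0021). MRPS21, a small-subunit protein, stood at 14.9 and 15.0 against 23.2 and 23.1 (0.60, SE 0.025, adjusted p = 6.1e-05). MRPL54 stood at 12.9 and 12.2 against 19.7 and 18.9 (0.58, SE 0.041, adjusted p = 0.00029). The replicates of these 3 genes were close in both lines, with the widest gap for MRPL55 in HL60. MRPL36, whose bacterial counterpart binds zinc, stood at 7.88 and 7.79 against 11.01 and 12.2 (0.51, SE 0.055, adjusted p = 0.0011). MRPS15 stood at 17.4 and 17.1 against 22.1 and 23.3 (0.38, SE 0.036, adjusted p = 0.00074). The remaining 3 that rose were MRPL43 (0.37), MRPL17 (0.36) and MRPL34 (0.22). The genes that rose had a median span of 5894 bases (706 to 216371), those that fell 12560 bases and those that did not pass 20369 bases, with wide overlap between these groups.

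In the small subunit, MRPS2, MRPS23, MRPS16 and MRPS7 fell beyond 2-fold on the log2 scale. MRPS2 (chr9:135499984-135504673), whose bacterial counterpart sits between head and body of the subunit, stood at 30.7 and 30.5 FPKM in HL60 and at 13.1 and 12.6 in HL60/ADR (-1.19, SE 0.030, adjusted p = 2.1e-05). MRPS23 (chr17:57834781-57850056), a mitochondria-specific protein, stood at 9.01 and 9.07 against 3.53 and 3.70 (-1.12, SE 0.039, adjusted p = 4.1e-05). MRPS16 (chr10:73248843-73252693), in which a mutation causes a respiratory chain disease, stood at 27.2 and 27.9 against 13.0 and 12.6 (-1.05, SE 0.032, adjusted p = 3.0e-05). These 3 kept their replicates within a narrow range in each line. MRPS7 (chr17:75261674-75266376), whose bacterial counterpart starts the assembly of the head, stood at 13.4 and 13.1 against 6.19 and 5.99 (-1.004, SE 0.035, adjusted p = 4.0e-05). MRPS12, of the decoding centre, was lower by -0.79, MRPS35 by -0.65, MRPS11 by -0.64, and MRPS27, a pentatricopeptide repeat protein, by -0.36.

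The 7 MRPS genes that did not pass were MRPS5, MRPS17, MRPS22, MRPS26, MRPS28, MRPS31 and MRPS36. MRPS5 stood at 5.46 and 5.65 FPKM in HL60 and at 5.58 and 5.48 in HL60/ADR (-0.01), with overlapping libraries. MRPS28 stood at 5.96 and 6.32 against 5.53 and 3.53, and was the only member whose replicates differed by over 1.5-fold in a line. MRPS36, despite its name, is known as a subunit of the alpha-ketoglutarate dehydrogenase complex and not of the ribosome (-0.20, adjusted p = 0.13).

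The 3 MRPS18 paralogues descend from 1 bacterial protein and occupy different places. MRPS18A, which sits in the large subunit, fell the most of the 3, from 26.9 and 24.9 FPKM to 14.1 and 14.7 (-0.80, adjusted p = 0.00016). MRPS18B, a protein of the small subunit, stood at 30.9 and 30.8 in HL60 and at 23.1 and 23.0 in HL60/ADR (-0.41, adjusted p = 0.00014). MRPS18C, which holds the place of the bacterial protein, stood at 4.26 and 4.02 against 2.94 and 3.43 (-0.30, adjusted p = 0.019). All 3 were lower in both HL60/ADR libraries than in both HL60 libraries, and the differences between the paralogues were not tested.

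Grouped by origin and place, 21 of 30 MRPL genes with a bacterial counterpart were lower and 5 higher (median log2 difference -0.48). Of the 19 mitochondria-specific MRPL genes, 12 were lower and 4 higher (-0.39). Of the 16 MRPS genes with a bacterial counterpart, 11 were lower and 2 higher (-0.38), and of the 10 mitochondria-specific ones 7 were lower and 0 higher in limma (-0.42, and 0 higher at an unadjusted p under 0.05). In this order the shares lower were 70%, 63.2%, 68.8% and 70%, against 67.9% of all members and 48.8% of all tested genes. The shares higher were 16.7%, 21.1%, 12.5% and 0%, against 14.1% and 30.9%. The 10 mitochondria-specific MRPS genes included MRPS18B, although it descends from a bacterial protein as stated above. MRPS18A and MRPS30, which carry MRPS names but sit in the large subunit, were both lower. Chromosomes 1, 2 and 17 held 8 members each. The median log2 difference was -0.88 for those on chromosome 17 against -0.33 for its 813 tested genes, -0.29 on chromosome 2 against -0.27, and -0.09 on chromosome 1 against -0.20, where 3 were higher and 4 lower.

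Levels spread over a 29.1-fold range in HL60 and a 27.0-fold range in HL60/ADR. The most abundant member in both lines was MRPS34, a mitochondria-specific small-subunit protein, at 72.3 and 75.0 FPKM in HL60 and at 47.2 and 47.6 in HL60/ADR (-0.63). MRPL37 held rank 3 in both lines, at 49.8 and 50.8 against 32.4 and 30.3 (-0.67). MRPL18, a protein of the central protuberance, moved from rank 4 to rank 2, at 46.2 and 45.9 against 36.4 and 38.1. In HL60, MRPS34 and MRPL12 did not differ beyond the spread of the MRPL12 libraries, and MRPL37 lay below both. MRPS18B and MRPS26 (24.2 and 26.2 against 27.5 and 27.0, 0.11, adjusted p = 0.080) were the next most abundant MRPS genes by the mean of the 4 libraries.

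At the lower end, MRPL46 had the lowest mean in both lines, at 2.60 and 2.46 FPKM in HL60 and at 1.70 and 1.81 in HL60/ADR. MRPS17 stood at 2.92 and 2.32 against 2.26 and 1.67 (-0.29, adjusted p = 0.12), and MRPL22 at 2.91 and 3.005 against 2.69 and 2.46. MRPL46 and MRPS17 could not be ordered in either line, since their libraries overlapped. MRPS6 stood at 3.63 and 4.12 against 2.63 and 2.17 (-0.52, adjusted p = 0.0067), and MRPL42 at 5.17 and 5.07 against 3.70 and 3.66 (-0.39). Depth per gene is unknown from FPKM.

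Across the 78 members the level in HL60 and that in HL60/ADR had a Pearson r of 0.836 and a Spearman rho of 0.822, against r of 0.997 and 0.993 between the libraries of 1 line. These are correlations across genes, which share libraries and are not replicates. The log2 difference and the HL60 level had a rho of -0.406, a pair of quantities that share the HL60 libraries. Only 6 genes stood among the 10 most abundant members of both lines. The summed FPKM of the members was 1301 in each HL60 library and 952 and 929 in HL60/ADR, or 0.7001% and 0.697% against 0.457% and 0.444% of all FPKM.

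**Figure D2:**
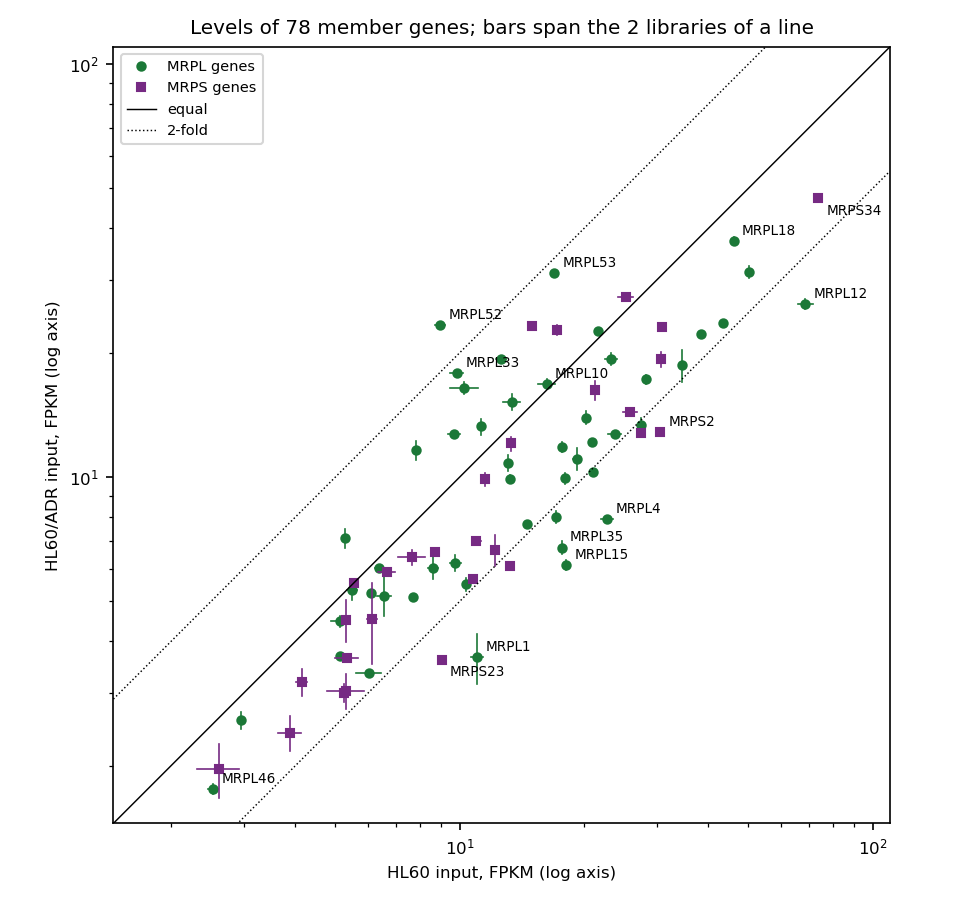
FPKM of the 78 genes in HL60 (horizontal log axis, mean of 2 input libraries) against HL60/ADR (vertical log axis), with bars spanning the 2 libraries of each line, circles for MRPL and squares for MRPS genes. Most points lie under the line of equality, MRPL52 lies above the upper 2-fold line, and MRPL12 falls from 68.7 to 26.3 FPKM.

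The other proteins of the mitochondrial ribosome, which do not carry MRPL or MRPS names, numbered 5. Of these, 3 were lower (60%) and 0 higher in limma, against 48.8% and 30.9% of all tested genes (median -0.49). At an unadjusted p under 0.05, 1 was higher (CHCHD1, 0.12), and with the library medians set equal 2 were higher and 3 lower. GADD45GIP1, a large-subunit protein, stood at 38.2 and 34.6 FPKM in HL60 and at 21.5 and 21.9 in HL60/ADR (-0.72). PTCD3, a pentatricopeptide repeat protein of the small subunit, stood at 12.6 and 13.1 against 7.55 and 7.51 (-0.70). DAP3, the GTP-binding protein of the small subunit, did not pass (-0.10).

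Most of the listed factors that build, feed and use this ribosome were lower in HL60/ADR too. Among all tested genes 48.8% were lower and 30.9% higher. Of 25 assembly factors 18 were lower and 3 higher (72% and 12%, median -0.72). MRM2, which methylates the large mitochondrial ribosomal RNA, stood at 16.5 and 16.2 FPKM in HL60 and at 1.22 and 2.05 in HL60/ADR (-2.73), and DDX28, a helicase of large-subunit assembly, at 9.91 and 10.4 against 2.24 and 2.34 (-1.76). In the other direction, METTL17, a factor of small-subunit assembly, stood at 14.4 and 14.8 against 32.5 and 31.8 (1.09). Of 15 translation factors 12 were lower and 2 higher (80% and 13.3%, median -0.67). PDF, which removes the formyl group from new chains, stood at 6.68 and 3.61 against 0.868 and 0.416 (-1.87), with a wide gap between the replicates of each line. The 2 that rose were MTIF3, an initiation factor (3.34 and 3.12 against 9.61 and 9.25, 1.302), and OXA1L, the insertase that receives new chains at the inner membrane (23.7 and 24.9 against 58.8 and 60.7).

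Of 15 genes for mitochondrial transcription and mRNA stability 14 were lower and 1 higher (93.3% and 6.67%, median -0.94). SUPV3L1, the helicase of mitochondrial RNA decay, stood at 14.6 and 14.1 FPKM in HL60 and at 3.19 and 3.20 in HL60/ADR (-1.87). The 1 that rose, FASTK, did so by 0.10 with an adjusted p of 0.048, and did not pass without the filter, without the trend, with the replicate block or with any library left out. The products of the mitochondrial genome itself split as follows. Of 13 protein genes 5 were lower (38.5%) and 1 higher (7.69%), and 7 did not pass (median -0.25). Both shares lay below those of all tested genes (48.8% and 30.9%). MT-ND1 stood at 70.5 and 88.9 against 15.8 and 20.3, and MT-CO1 at 71.1 and 79.1 against 94.1 and 113. MT-CO2 was listed at 0 in 1 HL60/ADR library and at 45.0 in the other. These transcripts were read from poly(A) RNA, and the ribosomal RNA MT-RNR1 (5.86 and 6.201 against 9.60 and 11.4) is measured there only as far as that selection kept it.

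The genes for the proteins of the cytosolic ribosome lay on the other side. Of 77, 76 were higher in HL60/ADR (98.7%) and 1 was lower, with a median log2 difference of 1.40. Beyond 2-fold, 61 were higher. Among all tested genes 30.9% were higher, and 8.93% beyond 2-fold. RPS27 stood at 253 and 246 FPKM in HL60 and at 1262 and 1259 in HL60/ADR (2.33), and RPL13 at 85.7 and 85.3 against 426 and 417 (2.29). RPS26 was the exception (57.7 and 63.0 against 52.8 and 54.8, -0.16), and its direction turned with the library medians set equal (0.05). The 77 genes took 7.34% and 7.33% of all FPKM in HL60 and 16.4% in both HL60/ADR libraries. FPKM is scaled to the library, and the part of this shift in the lower levels of the members was not tested. 

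**Figure D3:**
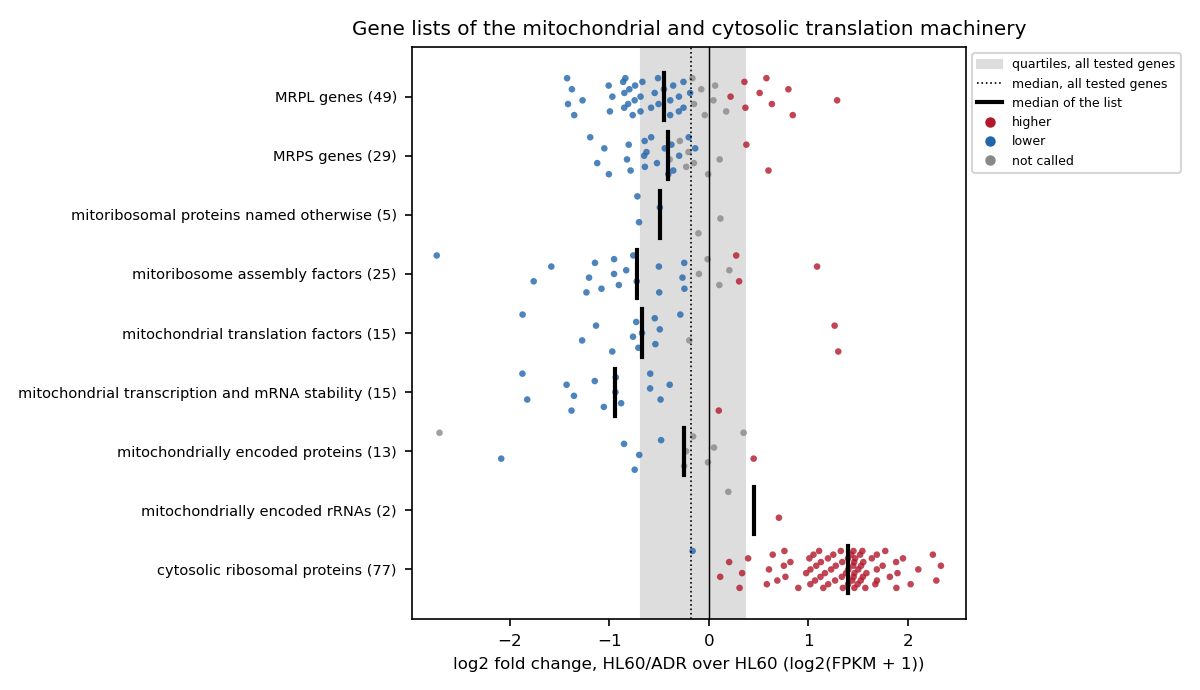
Log2 fold change (HL60/ADR over HL60) of each gene in lists of the mitochondrial and cytosolic translation machinery, 1 point per gene coloured by its call, with a black bar at the median of each list and grey quartiles for all tested genes. The cytosolic ribosomal proteins centre on 1.40, whereas the MRPL (-0.45), MRPS (-0.41), assembly (-0.72), translation factor (-0.67) and transcription (-0.94) lists centre below the all-gene median of -0.18.

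Of 8 myeloid markers, ELANE was low in HL60 (0.406 and 0.244 FPKM, against 6.46 and 8.05 in HL60/ADR) and the other 7 were above 5 FPKM in every library. Of the 8, 6 were higher in HL60/ADR and 1 lower (30.9% and 48.8% of all tested genes). MPO, the main enzyme of azurophil granules, stood at 137 and 135 FPKM in HL60 and at 244 and 252 in HL60/ADR. CTSG stood at 5.58 and 7.87 against 795 and 819, and CEBPA at 79.8 and 80.4 against 21.7 and 20.3. Of the T cell markers, CD3D stood at 0.469 and 0.617 against 54.7 and 55.6, whereas CD3E was at most 0.846 and CD3G at most 0.013 in any library, and the B cell marker CD79A stood at 8.19 and 8.89 against 4.27 and 3.90. The summed T cell markers ranged from 0.561 to 0.693 in HL60 and from 55.5 to 56.3 in HL60/ADR, nearly all of it CD3D. The part of these shifts in the results on the mitochondrial ribosome was not tested.

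Several members start head to head with another gene, on opposite strands, with starts at most 300 bases apart and no shared bases. There were 14 such pairs with a tested gene outside the members, and 1 between members (MRPL46 and MRPS11, 63 bases apart, both lower). Of the 14 pairs, both genes passed in 11: both were lower in 6, both higher in 2 and in 3 they went in opposite directions. Among all tested genes, taken singly, 79.7% passed, 48.8% as lower and 30.9% as higher. Whether such pairs move together more than other genes was not tested. The clearest opposite pair was MRPL49 and FAU, whose starts lie 6 bases apart. MRPL49, a mitochondria-specific protein, stood at 20.7 and 21.2 FPKM in HL60 and at 12.3 and 11.96 in HL60/ADR (-0.74). FAU, which encodes a fusion of a ubiquitin-like protein with a cytosolic ribosomal protein, stood at 143 and 138 against 272 and 272 (0.95). The libraries of the lines were fully apart for both genes, in opposite order. A further 4 members shared up to 280 bases at the head with a tested gene, and all 8 of these genes passed. Both were lower for MRPL13 (-0.81) with MTBP (-0.64) and for MRPS27 (-0.36) with PTCD2 (-0.51), whereas MRPL43 (0.37) with TWNK, the mitochondrial helicase gene (-2.47, 149 bases shared), and MRPS12 (-0.79) with SARS2, the mitochondrial seryl-tRNA synthetase gene (0.27, 216 bases shared), went in opposite directions.

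In the other opposite pairs without shared bases, MRPL30 (-0.39) faced MITD1 (0.70) and MRPS16 (-1.05) faced DNAJC9-AS1, a low-level antisense gene (1.17). Among the pairs that moved together, MRPL52 (1.29) faced SLC7A7 (0.46), which was below 1.10 FPKM in every library, and MRPL36 (0.51) faced NDUFS6, a subunit of complex I (0.68). MRPL18 (-0.30) faced TCP1, a subunit of the cytosolic chaperonin, which fell more (101.8 and 102.1 against 45.5 and 45.4 FPKM, -1.15). In 3 pairs 1 of the genes did not pass: MRPL12 (-1.35) faced AC139530 (-0.16), MRPL47 (-0.69) faced NDUFB5 (-0.05), and MRPL57 (-0.08) faced SKA3 (-1.54). The sequences printed above for MRPL12, MRPL18, MRPL46, MRPL47 and MRPL52 are the gaps of 66, 108, 62, 40 and 58 bases between these starts.

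**Figure D4:**
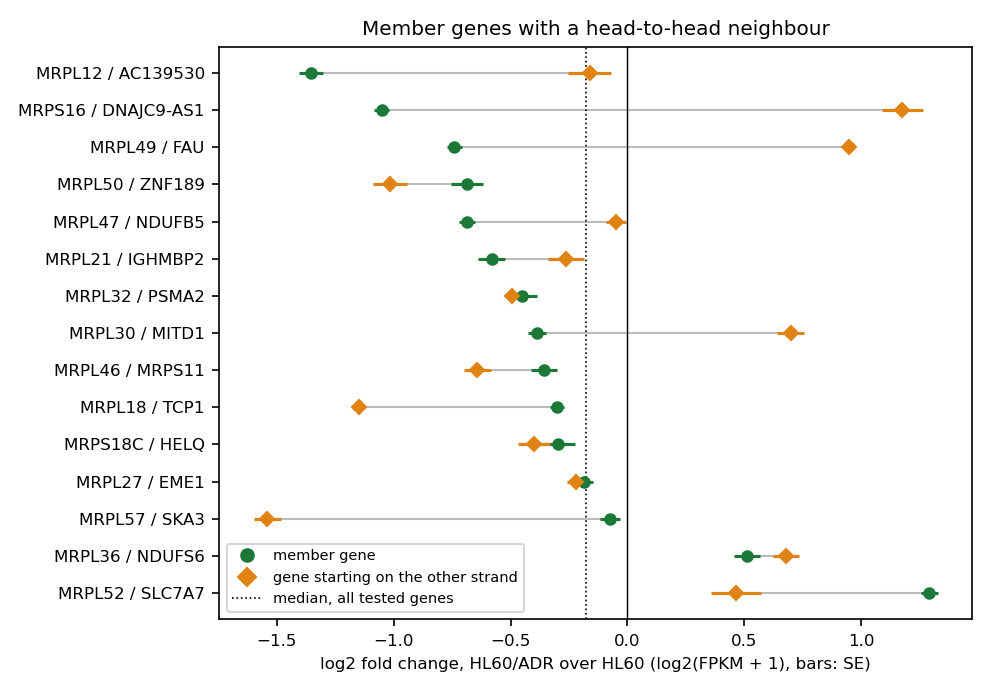
Log2 fold change (HL60/ADR over HL60, bars of 1 SE) of members (circles) and of the gene that starts on the other strand within 300 bases (diamonds), 1 row per pair, including the pair of MRPL46 and MRPS11. MRPL49, MRPL30 and MRPS16 lie left of 0 with partners right of 0, and MRPL52 and MRPL36 lie right of 0 with theirs.

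Reads of overlapping genes may be shared. The sources used here do not say whether the FPKM used the strand, and 29 members overlapped another gene with a mean FPKM of 0.5 or more, 23 on the other strand and 8 on the same one. Among the 49 members without such an overlap, a subset chosen after seeing the data, 30 were lower and 8 higher, with a median of -0.39. Of the 22 pseudogenes listed with member names, MRPS31P4 (mean FPKM 4.08), MRPS31P5 (2.96), MRPL45P2 (1.61) and MRPL3P1 (1.23) were the most abundant, so MRPS31, MRPL45 and MRPL3 are the members whose reads could be split with a near copy.

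Most member transcripts carried called m6A peaks. The deposited lists, 1 per line, gave 129 peaks in 62 members (79.5%) in HL60 and 120 peaks in 61 members (78.2%) in HL60/ADR. Among all tested genes 78.7% had peaks in the HL60 list, and 78% in that of HL60/ADR. Among tested genes within the members' range of mean FPKM the shares were 85.1% and 84.2%, above those of the members. These counts take every listed peak, whereas the study defined m6A peaks by a fold enrichment (IP over input) of 2 or more. At that limit 53 members (67.9%) had peaks in HL60 and 55 (70.5%) in HL60/ADR, against 72.5% and 73.6% of all tested genes. Without that limit, both lists held peaks for 57 members. Of the others, 5 members had peaks in HL60 alone, MRPL1, MRPL3, MRPL11, MRPL20 and MRPL58 (5.86% of tested genes), and 4 in HL60/ADR alone, MRPL13, MRPL34, MRPL42 and MRPL48 (5.17%). None of these 9 was an MRPS gene, a contrast that did not hold at a fold enrichment of 2 or more. At that limit, 2 MRPS genes had peaks in HL60 alone and 2 in HL60/ADR alone, against 3 and 5 MRPL genes. Of the 4 members listed in HL60/ADR alone, only MRPL34 had peaks at a false discovery rate under 0.05 (log10 values of -15 and -11). The log10 values were -0.793 for MRPL13, -0.566 for MRPL48 and from -0.363 to -1.15 for MRPL42. The best value of each of the 5 listed in HL60 alone lay between -2.39 and -3.91. In neither line was a peak of any fold enrichment called for 12 members, among them MRPL12, MRPL53 and MRPL24. With 1 list per line, no spread between replicates and no test can be given for peaks.

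Member peaks lay mainly in the 3′ untranslated region. In HL60, 73 of 129 were annotated there (56.6%, against 49.0% of all peaks of tested genes), 34 in the 5′ untranslated region (26.4% against 23.8%) and 22 in other exons (17.1% against 27.2%). In HL60/ADR the counts were 76 of 120 (63.3% against 48.2%), 35 (29.2% against 24.9%) and 9 (7.50% against 26.9%). The m6A mark is known to be concentrated near stop codons and in 3′ untranslated regions. The number of peaks per member with a peak had a median of 2 in both lines, and MRPS25 had the most, with 8 and 9.

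The fold enrichment of a peak is its IP signal over its input signal, as deposited. Its median over member peaks was 2.52 in HL60 (quartiles 1.70 and 3.66), against 3.27 over all peaks of tested genes, and 3.46 in HL60/ADR (quartiles 2.13 and 6.15), against 4.43. Under a stricter limit, with fold enrichment at 4 or above and the false discovery rate at or below 1e-05, 16 members (20.5%) kept peaks in the HL60 list and 28 (35.9%) in that of HL60/ADR, against 39.6% and 51.5% of all tested genes. Such peaks were called in both lines for 14 members.

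The strongest member peak of HL60, at a fold enrichment of 12.3, was annotated to the 3′ end of MRPL46 (chr15:88459501-88464875). No HL60/ADR peak there was annotated to MRPL46, and peaks annotated to genes outside the members were not searched. That stretch also lies within AC013489 on the same strand. It was followed by MRPL38, with 9.11 in its 5′ untranslated region, where HL60/ADR had 5.68, although the highest value of the gene in HL60/ADR was 10.7, in its 3′ untranslated region. The highest values of MRPL28 were 7.73 in HL60 and 2.43 in HL60/ADR, and those of MRPL27 were 7.27 and 10.6. In HL60/ADR the highest value was 19.5 in MRPL37 (chr1:54220910-54225464), where HL60 had 6.44, and where SSBP3 lies on the other strand. MRPS5 (15.7, against 6.74), MRPL35 (14.3, against 4.31) and MRPL43 (13.3, against 4.41) came next. The MRPS5 peaks lie within ZNF514, a zinc finger gene on the same strand, so that their source gene cannot be told apart. In all, 28 of the 129 HL60 peaks and 25 of the 120 HL60/ADR peaks had exon blocks inside another tested gene.

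Many of the highest values fell on a few steps. Fold enrichments in the lists often were whole multiples of a step of 1.10 in HL60 and 0.887 in HL60/ADR, within rounding. Among member peaks of 4 or more, 5 of 25 in HL60 (20%) and 17 of 51 in HL60/ADR (33.3%) did so, against 36.3% and 37.2% of all such peaks of tested genes. They included the MRPL37 value of 19.5, the MRPL43 value of 13.3, the MRPL28 value of 7.73 and the highest value of each member with a peak in HL60/ADR alone. The HL60/ADR values of 11.5 for MRPL21 and 4.43 for MRPL2, used in the ratios below, were also on a step. The log10 of the false discovery rate was -0.605 for the MRPL28 peak and -4.94 for the MRPL37 peak, whereas it was -198 for that of MRPL46.

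Peaks that overlapped 1 to 1 between the lines could be compared directly. There were 54 such pairs in 41 members. In 40 of them (74.1%) the HL60/ADR value exceeded that of HL60, and the median log2 ratio was 0.31 (quartiles -0.01 and 0.71), against 0.36 over the 13811 pairs of all tested genes. Beyond 2-fold, 7 pairs were higher (13.0%, against 18.1% of all pairs) and 1 was lower (1.85%, against 4.02%). All 8 lay in the 3′ untranslated region, where 31 of the pairs lay in both lines, and 0 of the 16 pairs in the 5′ untranslated region passed 2-fold. The shares by region over all tested genes were not computed, so this contrast has no background. Under this rule of at least 1 shared base, the members with pairs beyond 2-fold were all lower in expression in HL60/ADR. Of the 54 pairs, 39 belonged to lower members. Over all tested genes, 21.6% of the pairs of lower genes and 22.1% of those of higher genes were beyond 2-fold. Where 50% of both peaks had to overlap, there were 66 pairs, 9 over 2-fold higher in HL60/ADR and 0 over 2-fold lower. Of those 9, 7 belonged to members lower in expression and 1 to a member that was higher. Input is the denominator of fold enrichment, and the part of its change in these ratios was not tested.

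MRPL21, a large-subunit protein, had 2 of the 8 pairs, at chr11:68892019-68892168 (2.51 in HL60 and 11.5 in HL60/ADR, a ratio of 4.58) and next to it (2.48 and 6.65, a ratio of 2.68). Its level was lower in HL60/ADR, at 10.1 and 9.45 against 6.49 and 5.91 FPKM (-0.58). The false discovery rates of these 4 peaks were weak, with log10 values from -1.58 to -3.25. MRPL35 had the best supported pair, at chr2:86212266-86212834 in HL60 (4.31 and 14.3, a ratio of 3.32), with log10 false discovery rates of -175 and -288. MRPS25, a mitochondria-specific small-subunit protein, had a pair at chr3:15049296-15049982 (3.41 and 11.6, a ratio of 3.40), within the span of NR2C2 on the other strand. Its level was 10.7 and 11.2 against 7.16 and 6.88 (-0.58).

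The remaining pairs beyond 2-fold had lower enrichment. MRPL2, of the peptidyl transferase region, went from 1.59 to 4.43 (a ratio of 2.79), within the span of KLC4 on the other strand. Its level was 17.4 and 18.0 against 11.5 and 12.1 FPKM. MRPS14 went from 1.28 to 3.07 (2.40), with a level of 5.87 and 4.76 against 3.33 and 2.74, and MRPS6 from 1.70 to 3.65 (2.15). These ratios come from 1 value per line, and their error is not known. Their log10 false discovery rates in HL60 and HL60/ADR were -3.7 and -7.06 for MRPL2, -1.64 and -18.5 for MRPS14, and -5.76 and -22.8 for MRPS6. The pair in the other direction was that of MRPS18C, at 2.60 in HL60 and 1.20 in HL60/ADR, 2.17-fold lower. The log10 false discovery rates of its peaks were -8.56 and -1.1, and both lay within the span of ABRAXAS1 on the other strand. MRPS18C is also the least abundant of the 3 paralogues, and the highest value of MRPS18A went from 3.66 to 8.19.

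**Figure D5:**
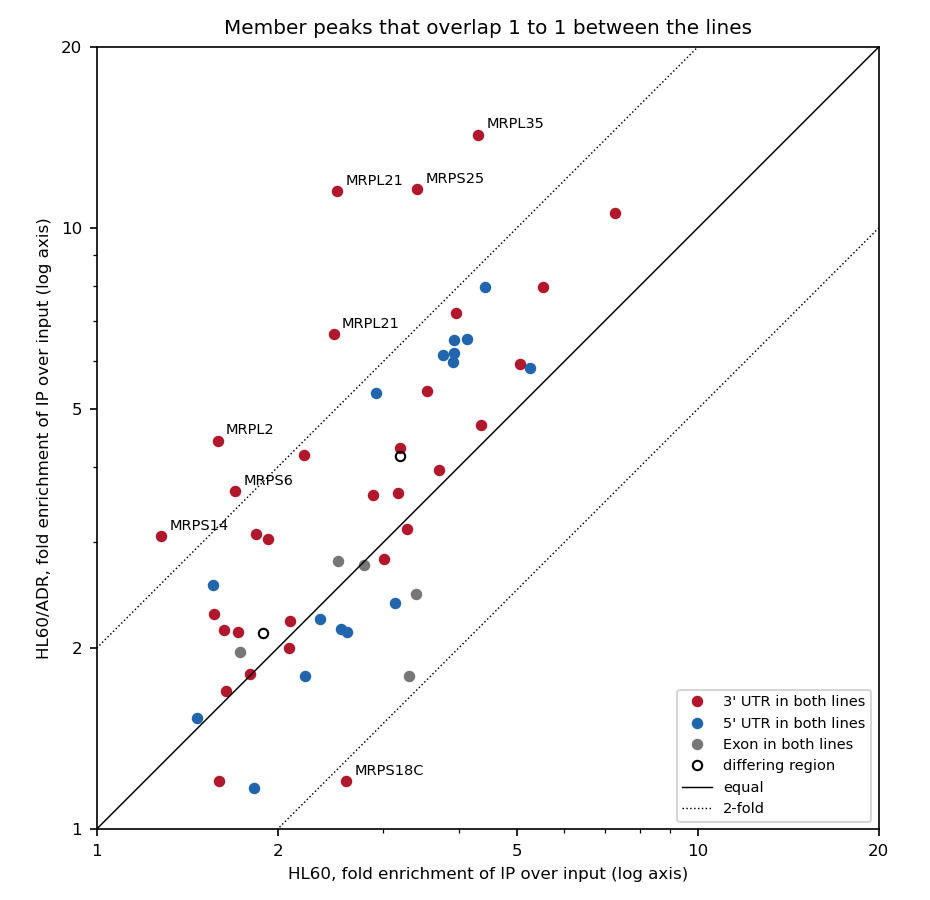
Fold enrichment (IP over input) of the 54 pairs of overlapping member peaks, HL60 on the horizontal and HL60/ADR on the vertical log axis, coloured by annotated region. The 7 pairs above the upper 2-fold line are all 3′ untranslated region peaks (MRPL21 with 2 of them, MRPL35, MRPS25, MRPL2, MRPS14 and MRPS6), and MRPS18C alone lies under the lower one.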

How the data were processed

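Reads had been trimmed (fastp) and aligned (HISAT2) to GRCh38, Ensembl release 101, by the authors. StringTie gave the deposited FPKM of each gene and input library. Peaks came from exomePeak, with ChIPseeker annotation by the authors, as 1 deposited list per line. The study states that the values of the 2 replicates were averaged, but not how replicates entered the peak calls. Versions of the authors' tools are not given in the sources used here. The deposited peak lists hold, from the authors' peak caller, the fold enrichment (a ratio), the p-value, and 2 scores (log10 of the p-value and log10 of the false discovery rate). No raw counts were used here, so depth per gene is unknown.

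The filter was a mean FPKM of at least 0.5. Values of log2(FPKM + 1) were fitted by limma (version 3.58.1, under R 4.3.3), two-sided, with an intensity trend, cell line being the sole term, and Benjamini-Hochberg adjustment over all 13053. The log2 scale understates changes of low genes. The fit was tested on simulated data first. Peaks were paired, with no test, where they overlapped 1 to 1 by at least 1 base within a gene. Coordinates are 1-based. Tables and figures used Python 3.11.15, pandas 2.3.3 and matplotlib 3.10.9.

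The members and lists were chosen with earlier results of these data known. Values of every library were given for the 8 largest rises and 8 largest falls, the 3 most and 3 least abundant members of each subunit, members beyond 2-fold, the 3 MRPS18 genes and members with peaks beyond 2-fold, and of other lists for up to 2 rises and 2 falls. Members that show a structural contrast were named besides, with values seen. Columns of the authors' own comparisons were not used. Alternatives were pseudocount, filter, trend, scaling, replicate block, left-out libraries and peak limits.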

Additional observations from a re-analysis of the deposited data

How the results depend on the processing

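Under the alternatives run, 53 falls and 11 rises among the members changed mainly with the scaling. With library medians set equal, the MRPL genes that were higher numbered 14 and the MRPS genes 4, the members' median was -0.21, and the sign turned for MRPL27 (0.026), MRPL48 (0.17), MRPL57 (0.14), MRPS24 (0.077), MRPS5 (0.21), MRPS9 (0.0116), DAP3 (0.11), MT-ND6 (0.21), MTERF4 (0.20), NDUFB5 (0.16), RPS26 (0.051) and SPI1 (0.15). The median of all genes then moved from -0.18 to 0.04. A pseudocount of 0.1 gave a members' median of -0.50. Leaving out 1 library at a time gave 8 to 9 MRPL genes higher and 29 to 33 lower, 2 to 3 MRPS genes higher and 17 to 21 lower, 9 to 12 members beyond 2-fold and a median from -0.46 to -0.41. Replicates share a number only (correlation of deviations 0.0433 over 2 pairs), and with the replicate number as a block 12 members were higher and 54 lower. Of the members called, 0 lost the call with a minimum FPKM of 1 or with the block, 3 without a filter, 2 without the trend and 1 with the pseudocount. Neither these settings nor leaving out a library turned the direction of a called member. Turns of direction in members that did not pass were not counted. The stricter peak limit left 30 of 66 members with a peak, 16 in HL60, 28 in HL60/ADR and 14 in both, and of 8 pairs beyond 2-fold it left 1. A fold enrichment of at least 2 left 4 of the 8. These limits keep fewer peaks by construction. Depth per gene is unknown, so its part in these changes was not tested.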
